A study of Mus musculus with 15 samples.

Results

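Pthlh encodes parathyroid hormone-related protein (PTHrP), a secreted peptide, and Pth1r encodes its receptor. Probe sets were assigned to these genes by the symbol or Entrez gene ID that the authors' 4 deposited gene lists give them, with older symbols brought up to date. This found 1 probe set for Pthlh (1422324_a_at) and 1 for Pth1r (1417092_at, listed under the older symbol Pthr1), that is, 2 of 22690 probe sets in the value table, 2416 of which had a name here. A probe set is a group of short oligonucleotides read together as the level of a transcript. Because names come from lists of genes that the authors found to differ on these same arrays, Pthlh was bound to differ there between both bud genotypes and between WT skin and WT buds, and Pth1r between WT skin and WT buds.

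RNA was measured on 15 Affymetrix MOE430A arrays, 3 in each of 5 groups, from CD-1 mouse embryos at embryonic day 15. Mammary buds came from wild-type (WT) embryos and from embryos labelled PTHrP-/-, a genotype without a functional Pthlh allele. Ventral skin made up the other three groups, labelled WT, K14WT and K14-PTHrP. K14WT skin is described in the labels as wild-type skin that served as the control for the transgenic skin, and the name K14-PTHrP denotes PTHrP driven by the keratin 14 promoter, which is active in basal epidermal cells. Tissue of embryos with the same genotype was pooled before RNA isolation, with 120 buds on average for about 20 ug of total RNA, and nothing in the labels tells if each array had its own pool. The p-values therefore rest only on how far arrays of a group differ, which may be technical.

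PTHrP acts over short distances. In the embryonic mammary gland it is made by the epithelium of the bud, and PTH1R, a G protein-coupled receptor that raises cyclic AMP through the stimulatory G protein, lies on the mesenchyme around it. Mice without either gene do not form the specialised mammary mesenchyme and their buds fail to grow out, while PTHrP made throughout the basal epidermis turns ventral skin towards nipple-like skin. Outside the breast the same ligand and receptor slow the maturation of cartilage cells in the growth plate.

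Both tissues held epithelial and mesenchymal RNA. All 12 named epithelial markers and all 11 named mesenchymal markers that could be counted were measured in both, and their summed levels, on the log2 scale, ran from 14.34 to 14.40 and from 14.70 to 14.85 in WT buds and from 13.92 to 14.10 and from 15.15 to 15.43 in WT skin. Array medians lay between 3.86 and 4.05 on the log2 scale, and arrays of a group had a median SD of 0.11 to 0.20 over probe sets. On 120 of 11690 probe sets kept for testing, every WT skin array lay more than 1 log2 unit away from all 12 other arrays, 61 of them lower and 59 higher. The WT skin arrays also read lower than all K14WT arrays and all bud arrays at each 18S ribosomal RNA control probe set. At the middle one they read 6.90 to 7.63, against 9.27 to 10.91 in K14WT skin and 8.62 to 9.74 in buds. The K14-PTHrP arrays spread over 7.50 to 10.78 there, and over 7.11 to 12.50 at the 5′ one, with replicate 2 about as low as WT skin and replicate 1 highest of its group. The part of these features in the results on skin was not tested. In bulk tissue, fewer cells of a type and less RNA per cell cannot be told apart.

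Pthlh transcript was higher in buds than in skin, at a modest level even in buds, where the WT arrays read above 21.5% to 37.6% of kept probe sets. In WT buds the log2 GC-RMA level (the authors' background-corrected and normalized signal) was 4.87, 5.85 and 5.57 in replicates 1, 2 and 3, a mean of 5.43 ± 0.51 (SD, n = 3). In buds labelled PTHrP-/- it was 6.81, 6.28 and 6.11, a mean of 6.40 ± 0.37. All 6 bud arrays lay above all 9 skin arrays, whatever the genotype on the label.

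In skin the gene was near the floor of the measurement. WT skin read 3.82, 3.36 and 3.46 (3.55 ± 0.24), K14WT skin 4.38, 3.86 and 4.23 (4.16 ± 0.26), and skin labelled K14-PTHrP 3.60, 3.64 and 3.39 (3.54 ± 0.13). All 3 WT skin arrays, all 3 K14-PTHrP arrays and 1 K14WT array were below the median of their own array, where the size of a difference is not exact. In the authors' deposited table the detection calls for Pthlh were 2 present and 1 marginal in WT buds, 3 present in buds labelled PTHrP-/- and 3 absent in WT skin. The transcript was thus called present or marginal in every bud array and in none of the WT skin arrays.

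**Figure D1:**
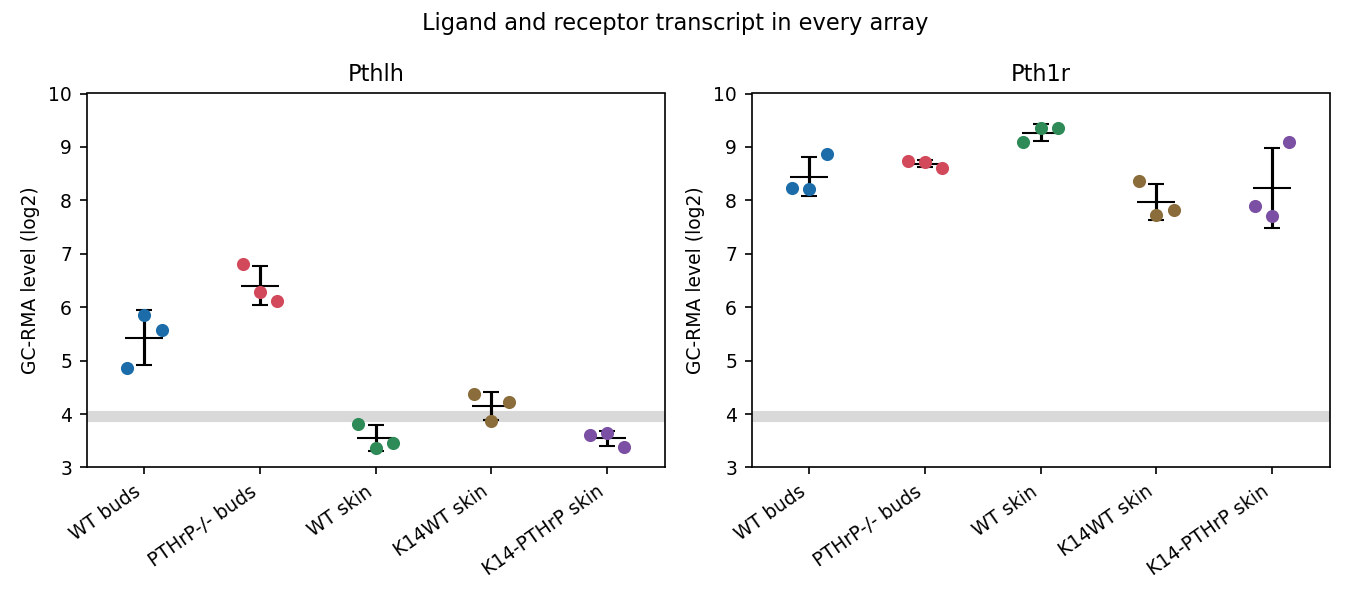
Log2 GC-RMA level of Pthlh (left) and Pth1r (right) in each of the 15 arrays by group; points are arrays, horizontal bars the mean and whiskers the SD of 3 arrays, and the grey band spans the medians of the arrays (3.86 to 4.05). Pthlh separates the 6 bud arrays (4.87 and above) from the 9 skin arrays (4.38 and below), whereas Pth1r lies well above the band in every array, with WT skin highest.

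Averaged over groups, Pthlh was 4.49-fold lower in the 3 skin groups than in the 2 bud groups (log2 difference -2.17 ± 0.16 SE, 9 against 6 arrays, limma with Benjamini-Hochberg adjusted p = 5.13e-07). A skin average below a bud average passed the threshold for 3.27% of the 11690 probe sets, a skin average above it for 2.57% (5.84% in all), and 0.565% showed no overlap between all bud and all skin arrays in either direction. The exact two-sided permutation test over the arrays gave p = 0.0004 over 5005 regroupings (adjusted over both genes, p = 0.000799). The unadjusted value is the smallest that this two-sided test can give. It rests on regrouping all 15 arrays freely, as if each were an independent unit. The arrays form 5 groups of 3, and those of a group may share a pool. Nor is this p-value independent evidence, because Pthlh has its name from lists chosen on these same arrays.

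The same held for each pair of groups. Of the 10 pairs, which share groups and so are not independent, all 6 that set a bud group against a skin group passed for Pthlh, with adjusted p from 2.60e-06 to 0.00943. WT skin was 3.69-fold below WT buds (-1.88 ± 0.24, adjusted p = 0.000281), against 0.890% of probe sets called lower there. K14WT skin was 2.42-fold below WT buds (-1.27 ± 0.24, adjusted p = 0.00943), the smallest of the 6 differences, against 9.36% called lower. K14-PTHrP skin was 3.70-fold below WT buds (-1.89 ± 0.24, adjusted p = 0.00121), against 3.37% called lower. Against buds labelled PTHrP-/- the differences were larger: -2.86 ± 0.24 for K14-PTHrP skin (adjusted p = 4.03e-05), 7.23-fold for WT skin (adjusted p = 2.60e-06) and -2.24 ± 0.24 for K14WT skin (adjusted p = 0.000854). The shares of probe sets called lower in skin there were 0.719%, 0.719% and 0.864%.

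None of the 4 pairs within a tissue passed for Pthlh, the lowest adjusted p being 0.136. In the order of levels, buds labelled PTHrP-/- came first and WT buds next, then K14WT skin, WT skin and K14-PTHrP skin. Of the neighbours in this order, WT buds and K14WT skin were the only pair past the adjusted threshold. Both bud groups, and K14WT and WT skin, had arrays that did not overlap but missed it. Of all probe sets 32.2% and 31.0% showed no overlap in these pairs.

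The bud pair is the one that the deletion bears on. Pthlh read higher, not lower, in buds labelled PTHrP-/-, by 0.97 ± 0.24 on the log2 scale (95% interval 0.44 to 1.50, 1.36-fold to 2.82-fold), and this did not pass over all probe sets (adjusted p = 0.211), where 0.0342% were called. Each array labelled PTHrP-/- lay above each WT bud array, which 32.2% of all probe sets also showed in one direction or the other. In the authors' deposited table Pthlh ranks 12th by fold (1.93) of the 639 probe sets listed as higher in the PTHrP-/- labelled buds, with mean signals of 45 and 86 and a Cyber-T false discovery rate of 0.0030. Leaving out WT bud replicate 1, the lowest of its group, brought the difference to 0.69. No source at hand places these probes inside or outside the deletion, so the probe set does not check the label. The epithelial list had a median difference of -0.36 between the same groups, near the -0.34 of all named genes, and none of its 12 members passed.

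Of the named genes near Pthlh on its chromosome, 2 of 8 differed between the bud groups, in opposite directions. They have a name here only because the authors listed them as differing on these same arrays. Among up to 50 protein-coding genes on either side in the RefSeq gene order of assembly GRCm38.p6, 8 were named and kept, of which Fgfr1op2 (12 genes away) rose by 1.48 ± 0.15 (adjusted p = 0.00216) and Golt1b (36 genes away) fell by 1.78 ± 0.23 (adjusted p = 0.0152). The Golt1b call was lost without any of 4 of the 6 bud arrays (adjusted p up to 0.143), and that of Fgfr1op2 held in all 13 alternatives. Fgfr1op2 and Golt1b are 2 of the 4 probe sets called in that comparison (0.0342% of all), and both were named after their values were seen. Of the 8 genes 3 lay above 0 and 5 below. Ccdc91, the next gene after Pthlh, was at 0.70 ± 0.17 (adjusted p = 0.209).

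The transgenic comparison showed no rise of Pthlh at this probe set. K14-PTHrP skin lay 0.61 ± 0.24 below K14WT skin (95% interval -1.14 to -0.09), without overlap of the arrays but not past the threshold (adjusted p = 0.368). In this comparison 0.710% of probe sets were called and 11.3% showed no overlap. Against WT skin the K14-PTHrP arrays differed by 0.00 ± 0.24 (95% interval -0.53 to 0.52, adjusted p = 0.9996); every array of both groups was below its array median, so this interval does not bound a change in transcript. K14WT skin in turn lay 0.61 ± 0.24 above WT skin (adjusted p = 0.136; 7.37% called, 31.0% without overlap), so K14WT skin stood above both other skin groups. Nor does any source say if the probes match the RNA made from the transgene, and the probe set does not check that label either.

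Pth1r transcript was readily measured in all 15 arrays and did not follow the tissue. The level was 8.24, 8.22 and 8.86 in WT buds (8.44 ± 0.37), and 8.73, 8.72 and 8.61 in buds labelled PTHrP-/- (8.69 ± 0.07). It was 9.09, 9.36 and 9.35 in WT skin (9.27 ± 0.16), 8.35, 7.73 and 7.83 in K14WT skin (7.97 ± 0.34), and 7.89, 7.71 and 9.09 in skin labelled K14-PTHrP (8.23 ± 0.75). WT skin was the highest group, the K14 groups the lowest, and K14-PTHrP replicate 3 stood with WT skin and apart from both its fellow replicates.

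The receptor spanned 1.65 log2 units over all arrays and the ligand 3.45. Averaged over groups, skin and buds differed by -0.07 ± 0.19 for Pth1r (95% interval -0.49 to 0.34, adjusted p = 0.885), and the exact two-sided permutation test of 6 bud against 9 skin arrays gave p = 0.808. None of its 6 pairs of a bud group with a skin group passed, with adjusted p from 0.226 to 0.764. In either direction those pairs called 1.83% (WT skin), 4.29% (K14-PTHrP skin) and 11.5% (K14WT skin) of probe sets against WT buds, and 1.90%, 1.83% and 1.59% against buds labelled PTHrP-/-. Of the neighbours in the order of levels (WT skin, buds labelled PTHrP-/-, WT buds, K14-PTHrP skin, K14WT skin), no pair passed the adjusted threshold. The arrays of WT skin and of buds labelled PTHrP-/- did not overlap (adjusted p = 0.505). The share of all probe sets without overlap is not given for this pair. In the single pairs for which it is given, it ran from 11.3% to 32.2%.

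**Figure D2:**
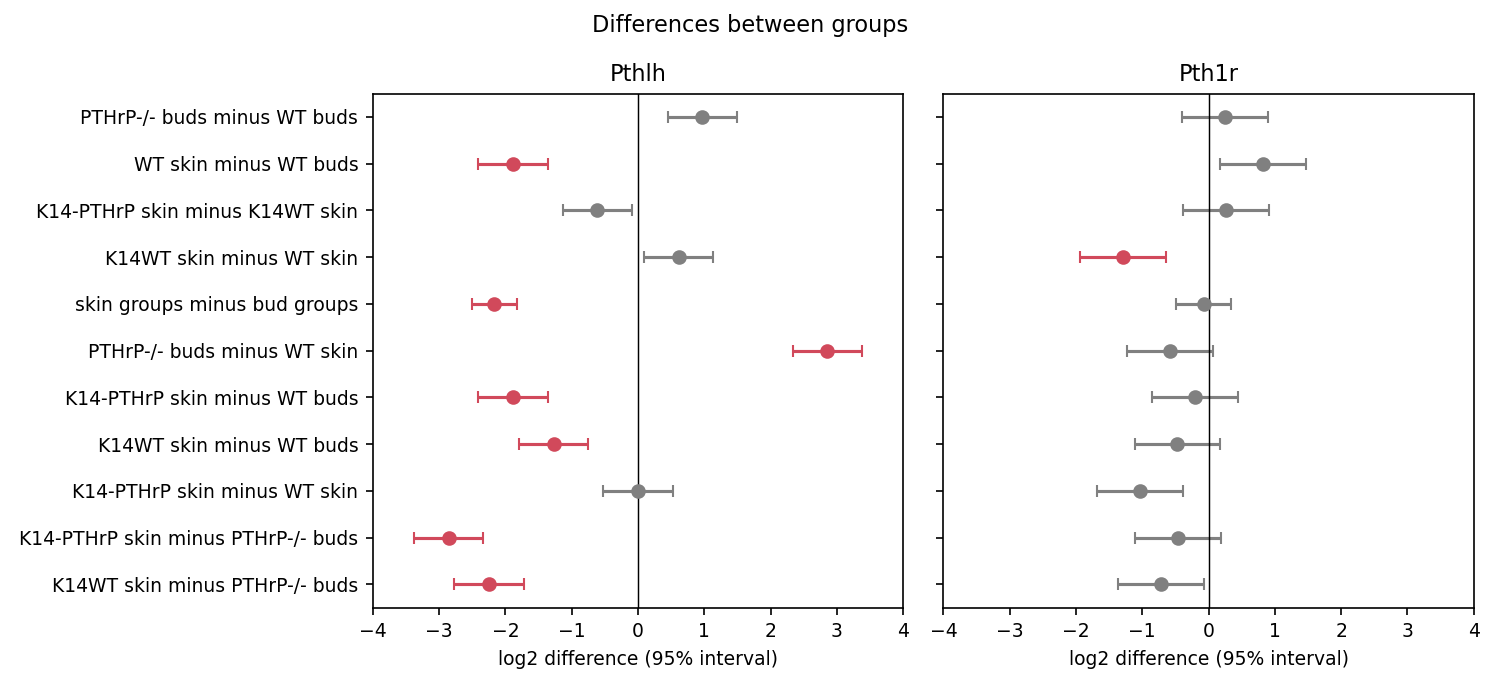
Log2 difference between groups for Pthlh (left) and Pth1r (right), with 95% intervals from the limma fit over 15 arrays; red marks an adjusted p under 0.05. For Pthlh the red points are the 6 pairs of a bud group with a skin group and their average, and for Pth1r the red point is K14WT skin minus WT skin.

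Pth1r differed between both sets of wild-type skin. K14WT skin was 2.45-fold below WT skin (-1.29 ± 0.30 SE, 95% interval -1.94 to -0.65, n = 3 per group, limma adjusted p = 0.0213), without overlap of the arrays. This comparison called 7.37% of all probe sets, 5.98% lower in K14WT skin, and 31.0% showed no overlap. The call was lost without WT skin replicate 2 or 3 (adjusted p = 0.0818 and 0.0615), without K14WT skin replicate 2 or 3 (0.0773 and 0.0813) and with dim probe sets kept in the test (0.0530). K14-PTHrP skin was 1.04 ± 0.30 below WT skin (adjusted p = 0.0966, 3.21% of probe sets called), and its replicate 3 lay level with the lowest WT skin array.

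Against WT buds the receptor's position therefore depended on which skin was used. WT skin lay 0.83 ± 0.30 above WT buds, without overlap (95% interval 0.18 to 1.47, adjusted p = 0.301; 1.83% of probe sets called, 18.8% without overlap), and K14WT skin lay 0.47 ± 0.30 below them (adjusted p = 0.298; 11.5% called). In the authors' deposited table Pth1r is 72nd by fold of 338 probe sets higher in WT skin than in WT buds, at 1.74-fold, with mean signals of 355 and 618, a false discovery rate of 0.0024 and all 3 arrays of both groups called present.

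Neither change of the ligand's genotype came with a change of the receptor that passed the test. In buds labelled PTHrP-/- Pth1r differed from WT buds by 0.25 ± 0.30 (95% interval -0.40 to 0.89, adjusted p = 0.700), or 0.757-fold to 1.86-fold. In K14-PTHrP skin it differed from K14WT skin by 0.26 ± 0.30 (95% interval -0.39 to 0.91, adjusted p = 0.732). That second value hung on replicate 3 of the K14-PTHrP group, and it was -0.17 without it.

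Other genes of the pathway were described from lists of signalling proteins, responses, peptidases, upstream regulators and cell type markers, with the brightest kept probe set for each gene. Every named member stands on a list that the authors chose on these arrays, so the counts are a description and not independent evidence of a direction. Of 64 signalling proteins 10 could be counted, and none passed in buds labelled PTHrP-/- (median -0.45, against -0.03 for all kept probe sets and -0.34 for all named genes). Gnas, the stimulatory G protein subunit that couples PTH1R to cyclic AMP, was at -0.21 ± 0.13 (adjusted p = 0.452). Prkar1a, a regulatory subunit of protein kinase A, was at -0.47 ± 0.17, and Grk6, a kinase of activated receptors, at -0.61 ± 0.17 (adjusted p = 0.266 and 0.228). Prkar1a and Grk6 were named after their values were seen. Of the 10 members 9 lay below 0, and Adcy6 lay above it (0.45 ± 0.17, adjusted p = 0.293).

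Between tissues 2 of these 10 were lower in skin and none higher, where 3.27% of all probe sets were called lower and 2.57% higher. Ramp2, an accessory protein that can associate with PTH1R and is best known as a partner of the calcitonin receptor-like receptor, was 3.92-fold lower in skin (-1.97 ± 0.25, adjusted p = 0.000207). Its group means were 10.33 in WT buds, 10.24 in buds labelled PTHrP-/-, and for the skin groups 9.47 (WT), 7.43 (K14WT) and 8.04 (K14-PTHrP). Like Pth1r, Ramp2 was lower in K14WT than in WT skin (-2.04 ± 0.38, adjusted p = 0.00664, and 0.0523 in a fit of both groups alone). Gng12, a G protein gamma subunit, was higher in K14WT skin (0.97 ± 0.26, adjusted p = 0.0397). The Gng12 call was lost in 7 of 13 alternatives, 5 of them single arrays left out (up to 0.128). Akap12, an anchor of protein kinase A, was the other gene lower in skin (-0.66 ± 0.18, adjusted p = 0.0437). The Akap12 call was lost in 13 of 21 alternatives, 10 of them single arrays left out (up to 0.119). Between the wild-type skins 7.37% of all probe sets were called. No signalling protein passed in K14-PTHrP against K14WT skin, or in WT skin against WT buds, where 0.710% and 1.83% of all probe sets were called.

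Of 30 cyclic AMP and early response genes 8 could be counted. In buds labelled PTHrP-/- the matricellular factor Ccn2 rose by 1.05 ± 0.14 (adjusted p = 0.0203, lost without any of 5 of the 6 arrays, up to 0.159). In that comparison 0.0342% of all probe sets were called. The other 7 lay below 0, none past the threshold. Among these 7, Egr1, an early response transcription factor, was at -0.95 ± 0.27 and Id1, a target of BMP signalling, at -0.69 ± 0.12 (adjusted p = 0.228 and 0.118). The list median was -0.39, near the -0.34 of all named genes. Egr1 was named after its value was seen. Its mean in buds labelled PTHrP-/- was 3.69, below the medians of these arrays (3.96 to 4.04), so the size of its difference is not exact. In K14-PTHrP against K14WT skin Ccn2 fell by 1.70 ± 0.14 (adjusted p = 4.16e-05) and Id1 rose by 0.69 ± 0.12 (adjusted p = 0.0216). There 0.710% of all probe sets were called. The Id1 call was lost without K14WT skin replicate 3 or K14-PTHrP skin replicate 1 (adjusted p up to 0.415 over all alternatives). Neither Ccn2 nor Id1 passed in a fit of both skin groups alone (adjusted p = 0.0820 for Ccn2). Ccn2 had a mean of 4.23 in K14-PTHrP skin, near the medians of these arrays (3.93 to 3.95), so the size of its fall is not exact.

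Of 20 genes tied to PTHrP in bud mesenchyme and nipple skin 5 could be counted, and none passed in the buds. The median there was -0.47, against -0.34 for all named genes. The gelatinase Mmp2 was at -0.56 ± 0.15 (adjusted p = 0.212) and Tbx3, a transcription factor of the early bud, at -0.60 ± 0.29 (adjusted p = 0.372). Tbx3 was named after its value was seen. Of the 5 genes, 4 lay below 0, and Wnt5a lay above it (0.44 ± 0.28, adjusted p = 0.469). In K14-PTHrP skin the matrix proteoglycan Vcan rose by 1.43 ± 0.22 (adjusted p = 0.00724; 0.250 in a fit of both groups alone). Mmp2 rose by 0.78 ± 0.15 (adjusted p = 0.0281, lost in 6 of 13 alternatives, 4 of them single arrays left out, up to 0.461). Vcan and Mmp2 were 2 of 5, where 0.710% of all probe sets were called. The list median was 0.78, against -0.01 for all kept probe sets and 0.06 for all named genes. Mmp2 was also lower in K14WT than in WT skin (-0.55 ± 0.15, adjusted p = 0.0377), where 5.98% of all probe sets were called lower. That call was lost in 8 of 13 alternatives, 4 of them single arrays left out. Mmp2 means were 8.27 in WT, 7.72 in K14WT and 8.5 in K14-PTHrP skin.

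Of 12 peptidases 3 could be counted. Mme (neprilysin), a cell-surface enzyme that cuts many small peptides, fell by 1.71 ± 0.27 in K14-PTHrP skin (adjusted p = 0.00812; 0.206 in a fit of both groups alone) and was at 0.65 ± 0.27 in buds labelled PTHrP-/- (adjusted p = 0.322). The membrane metalloproteinase Mmp14 was higher in skin than in buds on average (0.69 ± 0.14, adjusted p = 0.010), but not in every skin group. Its means were 4.24 in WT buds, 4.18 in buds labelled PTHrP-/-, and for the skin groups 5.39 (WT), 4.24 (K14WT) and 5.06 (K14-PTHrP), and K14WT skin fell below WT skin by 1.15 ± 0.22 (adjusted p = 0.00653). The bud and K14WT means lay near the array medians (3.86 to 4.05), where the size of a difference is not exact. Of 23 regulators placed upstream of Pthlh 3 could be counted. Ets1, one of the ETS factors known to act on the human gene's promoter in cancer cells, was higher in skin (0.60 ± 0.09, adjusted p = 0.00113), the opposite direction to Pthlh. Ptch1, the hedgehog receptor and itself a hedgehog target, was 0.91 ± 0.12 higher in WT skin than in WT buds (adjusted p = 0.000436) and fell by 1.44 ± 0.12 in K14-PTHrP skin (adjusted p = 4.16e-05; 0.0820 in a fit of both groups alone).

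**Figure D3:**
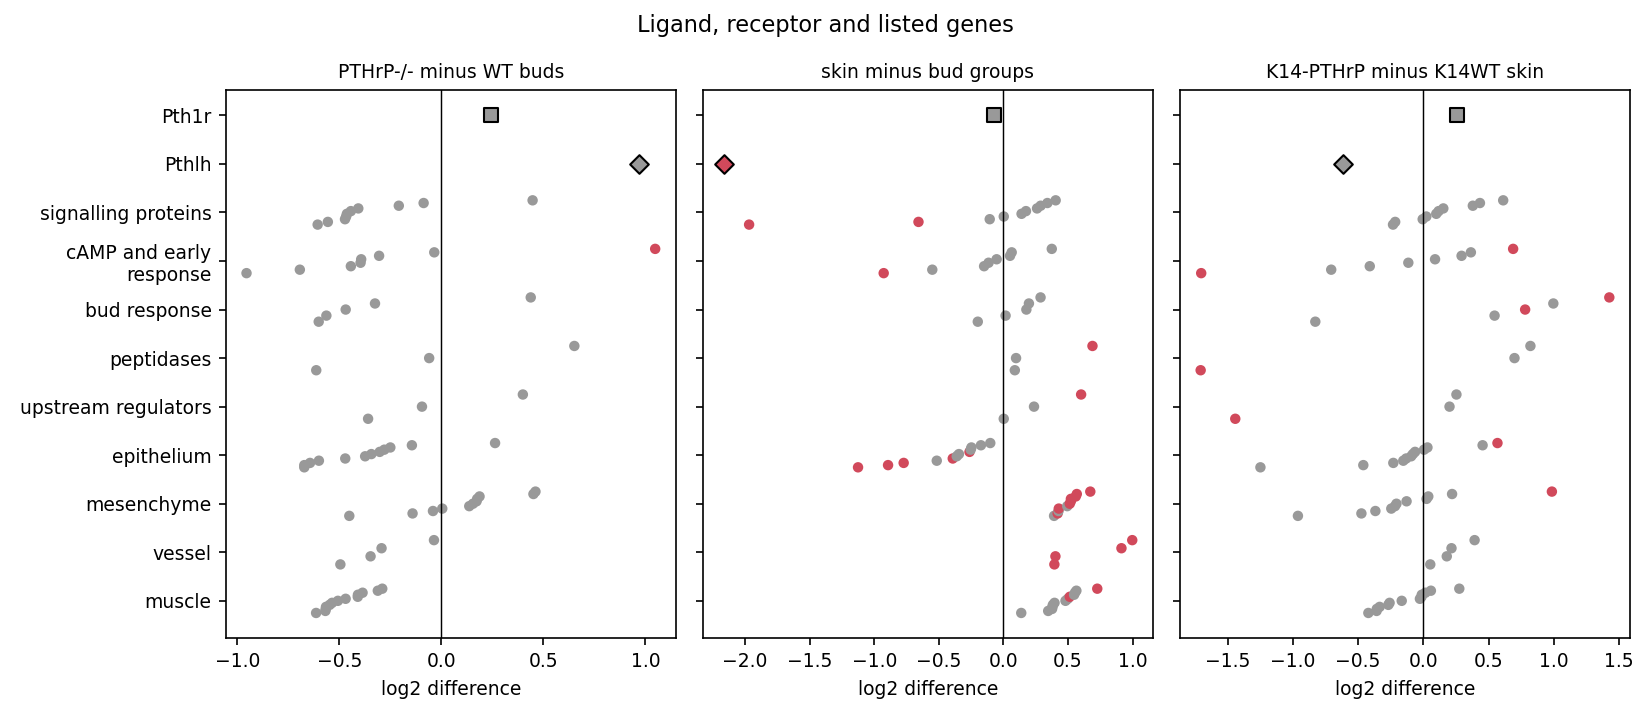
Log2 differences of Pthlh, Pth1r and the counted members of 9 gene lists in 3 comparisons (horizontal axes differ in range); each dot is a gene, and red marks an adjusted p under 0.05 over all 11690 probe sets. In the middle panel Pthlh, at -2.17, and Ramp2, at -1.97, lie lowest (with array weights Ramp2 was the lower, at -2.24 against -2.12), while Pth1r lies at -0.07.

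Cell type markers moved with the tissue as well. Of 12 epithelial markers 5 were lower in skin, where 3.27% of all probe sets were called lower, and all 12 lay below 0, with a median of -0.35. The calls of Krt15 and Col17a1 were each lost without any of 4 arrays, and that of Col17a1 also with quantile normalization (adjusted p up to 0.0582 and 0.102). The other 3 held in every alternative. The simple epithelial keratins Krt18 and Krt8 were at -1.13 ± 0.12 and -0.77 ± 0.10, and the adhesion molecule Epcam at -0.89 ± 0.12 (adjusted p = 2.47e-05, 0.000379 and 0.000408). Of 11 mesenchymal markers 8 were higher in skin, where 2.57% of all probe sets were called higher, and all 11 lay above 0, with a median of 0.51. Of these calls 5 were lost on leaving out single arrays, those of Vim, Col3a1 and Thy1 without any of 5 arrays each, Pdgfrb without any of 11 and Col1a1 without any of 12. The calls of Thy1, Pdgfrb and Col1a1 were also lost in some of the other alternatives (adjusted p up to 0.138 over all alternatives). Those of Col6a1, Col5a1 and Prrx1 held in every alternative, with Prrx1, a transcription factor of limb and skin mesenchyme, at 0.51 ± 0.09 (adjusted p = 0.00281) and the collagen Col5a1 at 0.67 ± 0.14 (adjusted p = 0.0120). All 4 vessel markers were higher in skin, with Esam, an endothelial adhesion molecule, at 0.997 ± 0.10 (adjusted p = 2.43e-05). The calls of Esam and Cdh5 held in every alternative. That of Egfl7 was lost without any of 4 arrays, and that of Acta2 without any of 10 and with no filter on dim probe sets (adjusted p up to 0.0891). The part of this difference in cell make-up in the Pthlh difference was not tested; the epithelial list shifted by -0.35 and Pthlh by -2.17.

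Beside the Pth1r difference between both wild-type skins, 1 of 11 mesenchymal markers, the retinoid-binding protein Crabp1, was lower in K14WT skin (-0.78 ± 0.21, adjusted p = 0.0368). That count is near the 5.98% of all probe sets called lower there. The Crabp1 call was lost in 7 of 13 alternatives, 5 of them single arrays left out (up to 0.134). The list median was 0.06. Of 13 skeletal muscle genes Myl1 was higher in K14WT skin (1.16 ± 0.21, adjusted p = 0.00540), where 162 of 11690 probe sets were called higher. Of these 13 genes 11 lay above 0, with a median of 0.54, against -0.05 for all kept probe sets and -0.18 for all named genes. The summed muscle level was 14.08 to 14.52 in K14WT skin against 13.22 to 13.91 in WT skin. Cartilage, a rich source of Pth1r, could be judged by Col9a1 alone of 19 markers, which read 4.02 to 4.89 in the WT group and 3.77 to 5.50 in the K14WT group. The lower of these values lay near the array medians (3.86 to 4.05). The part of these tissues in the Pth1r difference was not tested.

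Among 1891 other named genes, the patterns most like that of Pthlh over the 15 arrays, by Pearson correlation, were those of Zfp207 (r = 0.92), Dera (0.84), Ccdc91 (0.83), Zfp36l1 (0.81) and Gas5 (0.77). Zfp207 is a zinc finger protein of the mitotic spindle, and its group means were 8.28 and 8.63 in WT buds and buds labelled PTHrP-/- and 7.32, 7.79 and 7.26 in WT, K14WT and K14-PTHrP skin, the same order as for Pthlh. The most opposite were the complement gene C1qa (r = -0.90), the endothelial gene Esam (-0.90) and Esyt1 (-0.89). These values rest on the group means: with each group's mean removed, the correlations of the 8 genes with Pthlh ran from -0.11 to 0.37.

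For Pth1r the most similar were the probe set listed for Cd8b1 (r = 0.94), a gene named for a T cell co-receptor, the matrix glycoprotein Emilin3 (0.90), the RNA polymerase III subunit Polr3f (0.90), the glycosyltransferase Galnt2 (0.90) and the RNA-binding protein Pum2 (0.88). Here the likeness was also present within groups, where the same 5 genes correlated with Pth1r at 0.72 to 0.91. The spread of Pth1r within groups was uneven, with an SD of 0.75 in K14-PTHrP skin against 0.07 to 0.37 in the other groups. In K14-PTHrP skin replicate 3 read 9.09, and replicates 1 and 2 read 7.89 and 7.71, so this array weighs heavily in these correlations. The likeness without it was not tested. The most opposite were Cd9 (-0.82), a tetraspanin, Hnrnpab (-0.79) and Gng12 (-0.78). All values are descriptions over arrays that share their normalization, and the genes were picked as the extremes of 1891.

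**Figure D4:**
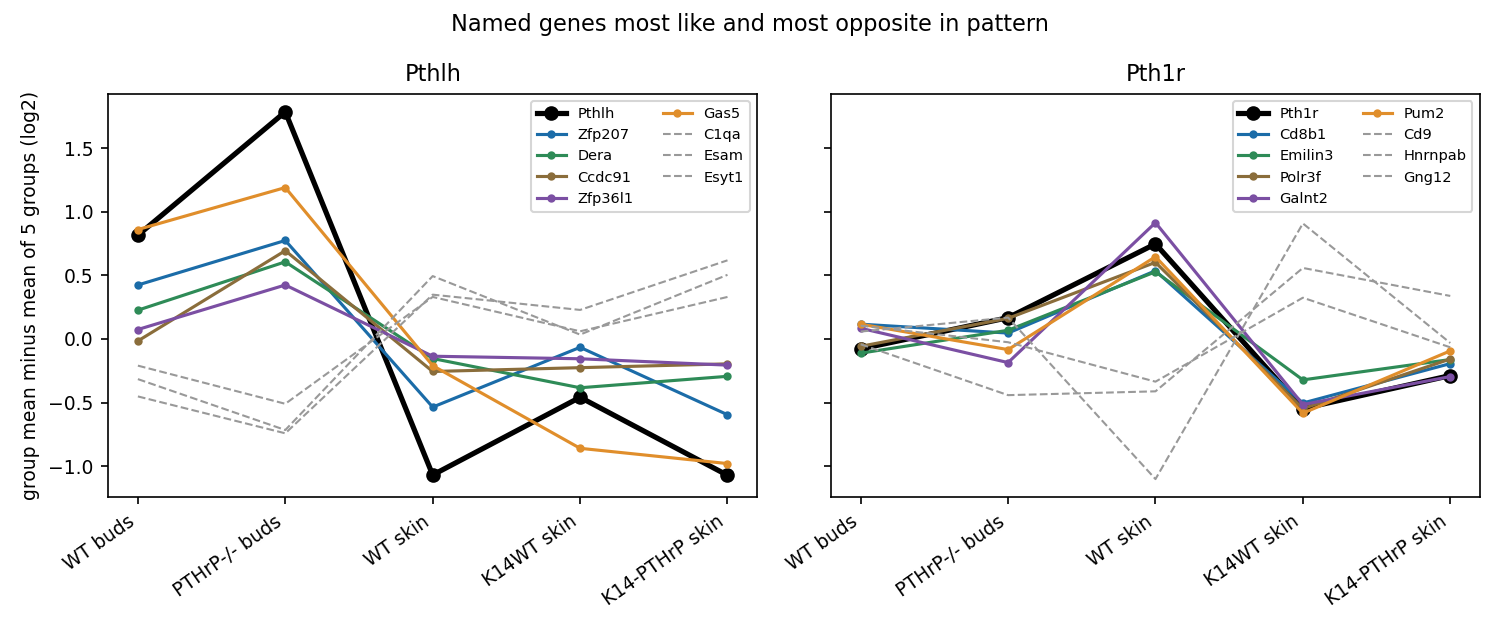
Group means of Pthlh (left) and Pth1r (right, thick black lines), of the 5 named genes most like each (coloured lines) and of the 3 most opposite (dashed grey lines), each shown on the log2 scale after subtracting the mean of its 5 groups. Pthlh and the genes like it are highest in buds labelled PTHrP-/-, whereas Pth1r and the genes like it peak in WT skin and are lowest in K14WT skin.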

How the data were processed

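GC-RMA produced the log2 values of the deposited table, per the file headers; MAS5 and affy are tools the submitters' processing notes add, with no version. The deposited lists give a mean intensity per group, a fold ratio (a signed score where genes were lower) and detection calls, and rest on Cyber-T, per the file headers. The log2 values were used as deposited. Of the table, 64 controls were removed; testing kept the 11690 probe sets that exceeded the array median on 3 or more arrays.

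Group means (5) of 15 arrays were fitted in R 4.3.3 with limma 3.58.1, leaving 10 residual degrees of freedom shared by all SEs, with two-sided tests and Benjamini-Hochberg adjustment across all kept probe sets, at 0.05. The fit was tested on simulated data. Exact permutation tests used scipy 1.17.1 in Python 3.11.15. Of 2384 Entrez IDs, 2323 matched the RefSeq table (GRCm38.p6), which served for names and gene order; the files name no build, so no coordinates are given. The members and gene lists were chosen with earlier results of these data known. Genes were named by rule: Pthlh and Pth1r, the 5 most and 3 least like each, and from each list up to 4 called genes per comparison, otherwise the 2 brightest; some of these are left out. Adcy6, Egr1, Grk6, Prkar1a, Tbx3, Wnt5a and the neighbours of Pthlh were added after their values were seen. The number of arrays limits the precision.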

Additional observations from a re-analysis of the deposited data

Results flagged for a closer look

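The Pth1r difference between skin and WT buds depended on the set of wild-type skin. The size of that dependence is the difference between both sets, K14WT minus WT skin, of -1.29 ± 0.30 on the log2 scale (limma adjusted p = 0.0213, 95% interval -1.94 to -0.65). It is not an independent test, because Pth1r was named for reading higher in these WT skin arrays than in WT buds. The call between both sets was lost in 5 of 13 alternatives, without any of 4 of the 6 arrays (adjusted p = 0.0615 to 0.0818) and with no filter on dim probe sets (0.0530). WT skin lay 0.83 above WT buds, and K14WT skin lay 0.47 below them.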

How the results depend on the processing

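Alternatives were no filter on dim probe sets, quantile normalization, a fit of only the groups compared (not possible for the tissue average, which takes in all groups), the replicate number as a block, array weights, an intensity trend with a robust prior, each array left out in turn and, chosen after seeing the data, leaving out the 120 probe sets on which WT skin stands apart. Of 146 recomputed values of the 10 main results, 135 kept direction and side of the threshold; the causes of the other changes were not tested. With array weights the Pthlh differences of the bud pair (0.94, adjusted p = 0.0497) and of K14WT against WT skin (0.57, 0.0401) and the Pth1r difference of WT skin against WT buds (0.76, 0.0344) passed. With no filter the Pth1r difference of K14WT against WT skin was -1.29 and did not pass (0.0530), and with single arrays left out it ran from -1.49 to -1.18. The Pth1r difference of K14-PTHrP against K14WT skin ran from -0.17 to 0.52 and that of the tissue average from -0.22 to 0.032, so both changed sign. The Pthlh tissue average ran from -2.31 to -2.06 with single arrays left out. The replicate block changed no call of either gene (Pthlh tissue average -2.17, adjusted p = 5.33e-06; bud pair 0.97, 0.219; Pth1r between wild-type skins -1.29, 0.0206) and gave 3, 221, 73, 883 and 646 calls against 4, 214, 83, 861 and 683 in the bud, WT skin against WT buds, transgenic, wild-type skin and tissue comparisons. Same-numbered arrays deviated together (all 3 correlations above 0.1) in 1 of 10 pairs of groups, K14WT skin with buds labelled PTHrP-/-, where the block left both calls as they were (adjusted p = 0.00357 for Pthlh and 0.202 for Pth1r), so the numbers were not taken as pairs. Array weights gave 234, 581, 1352, 4034 and 3096 calls. A fit of only the groups compared gave 97 calls in the bud pair and 7 in the transgenic one, and without the probe sets on which WT skin stands apart WT skin against WT buds gave 30. Leaving out single arrays gave as few as 1 in the bud pair, 48 to 210 in the transgenic one, as few as 383 for the wild-type skins and 432 to 1905 for the tissue average, the highest without K14-PTHrP replicate 3. Quantile normalization split the wild-type skin calls into 251 higher and 436 lower, against 162 and 699. Of 52 calls of listed genes in the 5 main comparisons 19 held in every alternative and 27 were lost on leaving out at least 1 array; 1 of 50 list medians changed sign with all probe sets of a gene averaged (upstream regulators in buds, 0.03). Pthlh in WT and K14-PTHrP skin lay below the array medians, so its folds against these groups are not exact.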
